A study of Mus musculus with 8 samples.

Results

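The genes described here are 40 genes of DNA replication, taken by symbol from the deposited count table. They range from the proteins that license replication origins to the polymerases, the enzymes that supply deoxynucleotides, and the cyclin E and E2F regulators of S phase entry. All 40 were found among the 23336 gene rows of the table, and all 40 were among the 15241 genes with enough reads to be tested. Their counts ran from 37 to 2228 per library.

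RNA was measured by sequencing after ribosomal RNA depletion in skeletal muscle of newborn mice, in a comparison of 4 ΔDMR1-U2 with 4 wild-type mice. Both groups were labelled as C57BL/6, female and at postnatal day 2. The ΔDMR1-U2 genotype is a deletion at Igf2, the imprinted gene of a fetal growth factor, named for a differentially methylated region and a segment called U2. The parent that passed on the deletion, whether 1 or both copies carry it, and the muscles dissected were not given in the labels or the design text. The libraries of each group are named 1A, 1B, 2 and 3, as in the labels.

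Before a cell divides, it copies its DNA in S phase. Origins are marked by the origin recognition complex and loaded with the MCM helicase. CDC45 and the GINS complex then activate the helicase, and DNA polymerases copy both strands behind it. The E2F transcription factors are known to drive most of these genes at the entry to S phase, together with cyclin E and its kinase CDK2. In newborn muscle, fibres no longer replicate their DNA, while satellite cells, myoblasts, fibroblasts and endothelial cells between them still divide.

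Total counts ran from 16084413 to 26913636 per library. Igf2as, the antisense transcript of the deleted locus, had 100 to 122 counts in ΔDMR1-U2 against 1113 to 1868 in wild-type, so every library carried the Igf2as level of its label. Igf2 itself overlapped between groups, at 4762 to 5621 CPM (counts-per-million, scaled to the effective library size) against 4590 to 5192 CPM. Titin, a defining gene of muscle fibres, took 10.5% to 12.8% of all counts, and the other fibre markers were abundant in every library. A pair of ΔDMR1-U2 libraries stood apart. Library 1A, labelled female, had 2.50 CPM of the X inactivation RNA Xist against 1270 to 1895 in the other 7 libraries, with 3 counts summed over Y-linked genes (0 to 8 in all libraries). Library 1B lay at the end of the first principal component, at -41.7 against -16.9 to 23.9 in the other 7.

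Nearly all of the 40 genes had a small fold change below 0 in ΔDMR1-U2 muscle, and the test called 1 of them lower. The fold change was below 0 on the log2 scale for 39 of the 40 genes, against 50.2% of all genes tested, and Orc1 at 0.04 was the exception. The median was -0.31 (all genes, -0.00), in a range from -0.82 for Ccne1 to 0.04. E2f2 fell, the only gene with a Benjamini-Hochberg adjusted p under 0.05 in the edgeR quasi-likelihood test, where 0.617% of all genes were called lower. None of the 40 was called higher by edgeR, where 0.512% of all genes were. At an unadjusted p under 0.05, 22 were lower and 0 higher, where 10.9% of all genes were lower and 10.4% higher. All 4 ΔDMR1-U2 libraries lay below all 4 wild-type libraries for 11 of the 40, where 6.38% of all genes did so. The opposite order was found for 0 of the 40 and for 6.4% of all genes. The 40 genes were chosen with earlier results of these data known, and many were lowest in the same library. These counts therefore describe the list and are not a test of it. These tissue samples hold many cell types, and fewer dividing cells and less RNA per cell cannot be told apart.

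**Figure D1:**
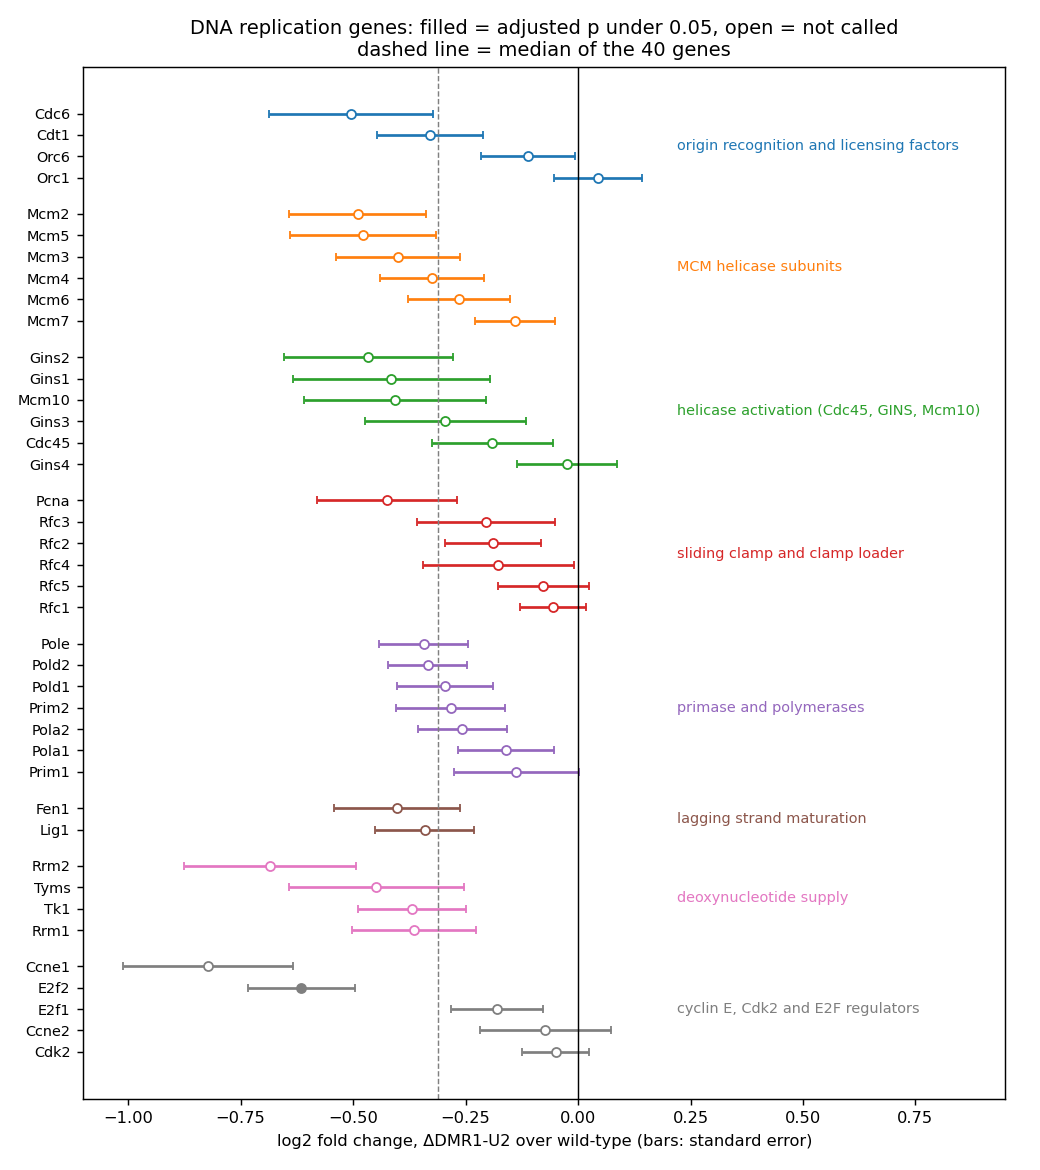
Log2 fold change of ΔDMR1-U2 over wild-type (x axis, bars are the standard error) for each of the 40 genes, grouped by role. E2f2 is the only filled point (adjusted p under 0.05, edgeR), 39 points lie left of 0, and the dashed line marks the median of -0.31.

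The size of the difference depended on the library. ΔDMR1-U2 library 1B had the lowest value of all 8 libraries for 29 of the 40 genes, and library 3 of the same group for 8. The median of the 40 genes, as log2 CPM minus the wild-type mean, was -0.07, -0.55, -0.16 and -0.38 in libraries 1A, 1B, 2 and 3 of ΔDMR1-U2. The same median was 0.10, 0.07, -0.05 and -0.15 in wild-type, in that order of libraries. The groups overlapped, since ΔDMR1-U2 library 1A lay above wild-type library 3. Their summed expression was 820 ± 112 CPM in the ΔDMR1-U2 group and 1004 ± 83.5 CPM in the wild-type group (SD, n = 4 each).

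Without ΔDMR1-U2 library 1B, the median fold change was -0.24 on the log2 scale, 16 genes were lower at an unadjusted p under 0.05 (8.19% of all genes), and E2f2 was called alone, where 0.436% of all genes were called lower. Without library 1A it was -0.35, with 26 lower at an unadjusted p under 0.05 (10.5% of all genes). Without both libraries it was -0.25, with 16 lower (6.91% of all genes) and none called by edgeR, where 0.0319% of all genes were called lower.

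**Figure D2:**
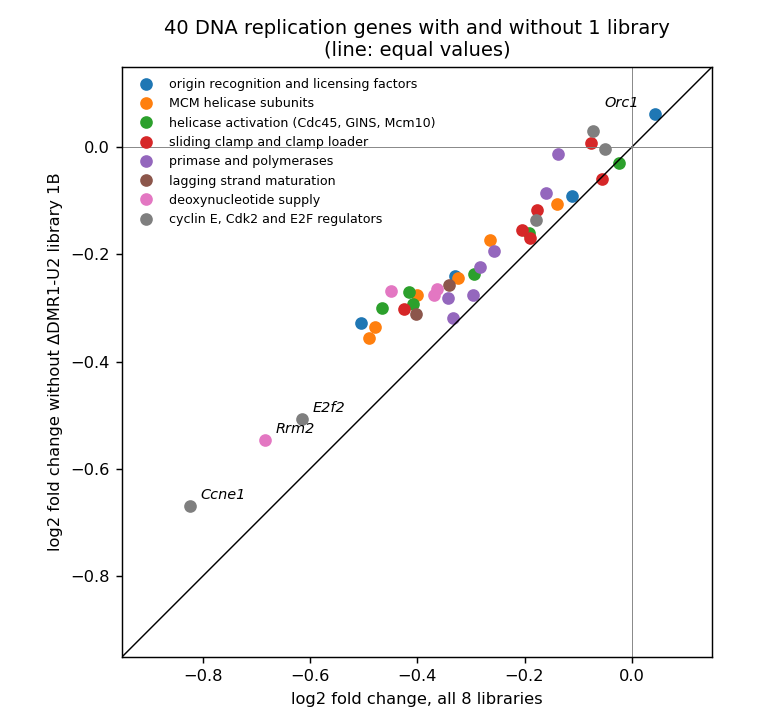
Log2 fold change of each of the 40 genes in all 8 libraries (x axis) and without ΔDMR1-U2 library 1B (y axis), coloured by role, with a line at equal values. Nearly all points lie above the line, closer to 0 without the library, and Rfc5 and Ccne2 cross to just above 0.

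Markers of other cell types differed in these libraries too. The summed adipocyte markers reached 165.8 CPM in ΔDMR1-U2 library 1B, against 34.4 to 44.2 CPM in the other ΔDMR1-U2 libraries and 28.6 to 66.1 CPM in wild-type. Of the 6 adipocyte markers, 5 were tested and 0 called, and all 5 were highest of their group in library 1B. The 6 keratinocyte markers, with 0 called, summed to 46.6 CPM in library 1B, to 21.2 to 24.8 CPM in the rest of that group and to 21.4 to 29.7 CPM in wild-type. Satellite cell and myoblast markers, the dividing muscle precursors, summed to 220.1 to 252.7 CPM in ΔDMR1-U2 against 221.6 to 280.6 CPM in wild-type, with 0 of 6 called. The muscle fibre markers, 6 in number, all had a log2 fold change below 0 (median -0.17), with 0 called and 2 lower at an unadjusted p under 0.05 (10.9% of all genes). Their sum overlapped between groups, at 155027 to 174839 CPM in ΔDMR1-U2, lowest in library 1B, against 169379 to 200143 CPM in wild-type. Schwann cell markers did not overlap between groups in their sum. All 6 had a fold change above 0, with 0 called. At an unadjusted p under 0.05, 4 were higher (10.4% of all genes), and 2 had all ΔDMR1-U2 libraries above all wild-type libraries (6.4% of all genes). They summed to 285 to 354 CPM in ΔDMR1-U2 against 202 to 274 CPM in wild-type. None of the markers of the endothelial, macrophage, erythroid and fibroblast lists was called either. The part of these cell types in the replication gene values was not tested.

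Factors of the E2F family are known to bind the letters TTTGGCGC, TTTCCCGC, TTTGCCGC and TTTCGCGC, and promoters of the 40 genes were searched for these words on both strands. RefSeq promoter windows (build GRCm38.p6), from 250 bases before to 50 after a start, were found for 32 of the 40. Mcm4, Gins1, Gins2, Gins4, Rfc2, Prim2, Pole and Ccne2 had no entry. The letters stood in 14 of 38 windows (36.8%), from 14 genes, and in 744 of all 32851 windows of that length (2.26%). Matches are listed for E2f2, the gene called lower, for Mcm5 and Mcm6, subunits of 1 helicase, for Cdc6 from the larger differences, and for Orc1 and Cdk2 from the smallest. Each is written 5′ to 3′ on the strand of its gene, with the E2F letters in capitals. Capitals reading GCGCCAAA, GCGGGAAA or GCGCGAAA are the words on the other strand, and in Mcm5 and Mcm6 words of both strands share bases.
E2f2 chr4:136172294-136172323 (plus strand): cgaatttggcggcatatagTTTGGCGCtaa
Cdc6 chr11:98908002-98908031 (plus strand): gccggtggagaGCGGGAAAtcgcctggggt
Orc1 chr4:108579416-108579445 (plus strand): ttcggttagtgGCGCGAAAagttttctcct
Cdk2 chr10:128705173-128705202 (minus strand): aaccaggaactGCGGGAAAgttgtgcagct
Mcm5 chr8:75109339-75109508 (plus strand): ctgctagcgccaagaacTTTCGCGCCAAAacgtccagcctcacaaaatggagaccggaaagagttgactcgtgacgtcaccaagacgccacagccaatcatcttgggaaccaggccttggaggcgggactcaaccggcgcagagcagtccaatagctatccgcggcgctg
Mcm6 chr1:128359706-128359875 (minus strand): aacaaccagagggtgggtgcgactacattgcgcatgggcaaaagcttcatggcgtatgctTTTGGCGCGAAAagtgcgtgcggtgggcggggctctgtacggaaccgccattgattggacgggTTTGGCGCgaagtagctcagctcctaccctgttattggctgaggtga

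The stretches of Mcm5 and Mcm6 end just before the RefSeq start and hold 2 and 3 matches. In E2f2 the first base of the match was base 40 after 1 of its 2 RefSeq starts. The E2f2 match lies before the GENCODE vM21 start of the gene, chr4:136172394. In Cdc6 the first base of the match was 138 bases before the RefSeq start, and in Orc1 27 bases before it. Both matches lie within the GENCODE vM21 span of their gene, which starts at chr11:98907801 for Cdc6 and chr4:108579423 for Orc1. Genes with and without the letters covered much the same range of differences. The median log2 fold change was -0.30 for the 14 genes with the letters (-0.61 to 0.04) and -0.35 for the 18 without them (-0.82 to -0.06). It was -0.30 for the 8 with no entry. Only exact matches inside the windows were searched for, so genes without the letters are not shown to lack E2F sites. Whether E2F factors have a part in the differences was not tested. The letters TTTGAA of the cell cycle homology region, known from promoters of mitosis genes, were searched on both strands as well. They stood in 6 windows of the 40 genes (15.8%), near the 17.9% of all windows, and in 14 of 19 windows of 20 mitosis genes (73.7%). E2F letters stood in 1 of those 19 (5.26%).

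**Figure D3:**
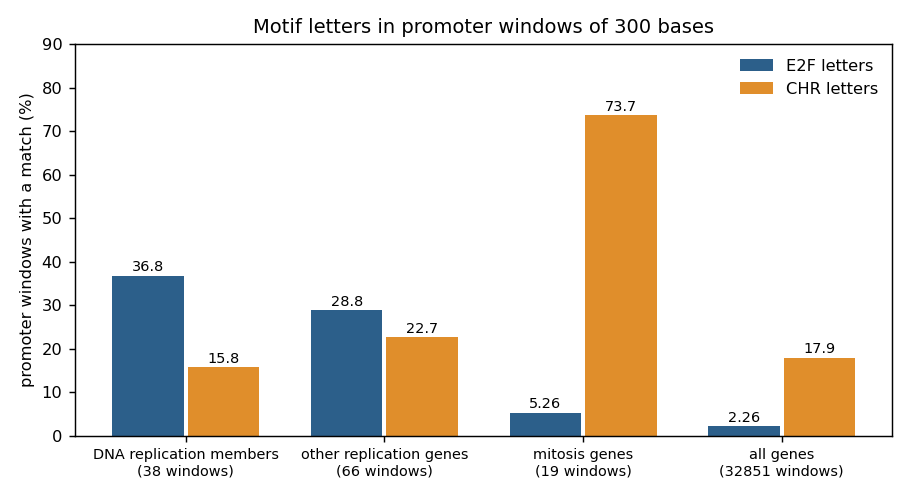
Share of RefSeq promoter windows (y axis, percent) that hold the E2F letters or the cell cycle homology region letters TTTGAA, for the 40 replication genes, 66 other replication genes, 20 mitosis genes and all genes. E2F letters stood in 36.8% of the windows of the 40 genes and in 5.26% of the mitosis windows, while TTTGAA stood in 15.8% and 73.7%.

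The first group in order of action is origin licensing. ORC1 and ORC6 belong to the origin recognition complex, and CDC6 and CDT1 load the MCM helicase at origins. The fold changes of the 2 loaders were larger than those of the 2 complex subunits. Cdt1 had 8.79, 6.88, 10.3 and 8.19 CPM in libraries 1A, 1B, 2 and 3 of ΔDMR1-U2 and 10.6, 11.0, 10.5 and 10.7 CPM in wild-type. Its wild-type values lay close together and all 4 ΔDMR1-U2 values lay below them, with library 2 just under. On the log2 scale, the fold change of Cdt1 was -0.33 ± 0.12 (SE), which did not pass (adjusted p = 0.153, edgeR). Cdc6 gave 8.53, 4.32, 8.47 and 6.96 CPM against 11.0, 10.3, 9.98 and 8.88 CPM, also with no overlap, and a log2 fold change of -0.50 ± 0.18. Orc1 and Orc6 overlapped between groups, at 0.04 and -0.11 on the same scale.

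MCM2 to MCM7 form the ring that unwinds the helix. All 6 genes had a log2 fold change below 0, from -0.49 for Mcm2 to -0.14 for Mcm7, with a median of -0.36, and none was called. Mcm2 had 34.8, 21.9, 36.6 and 29.99 CPM in libraries 1A, 1B, 2 and 3 of ΔDMR1-U2, and 50.9, 45.3, 40.5 and 36.6 CPM in wild-type. The groups did not overlap, but ΔDMR1-U2 library 2 and wild-type library 3 were nearly equal. Mcm2 had a log2 fold change of -0.49 ± 0.15 (SE; adjusted p = 0.116, edgeR), and the adjusted p was 0.0347 in DESeq2. DESeq2 called 3.3% of all genes lower, against 0.617% in edgeR, and its values are given here and below only where under 0.05. Mcm5 came next at -0.48 ± 0.16, from 27.01 ± 5.86 CPM against 37.7 ± 6.26 CPM, also without overlap. Mcm3, Mcm4 and Mcm6 overlapped between groups, with log2 fold changes of -0.40, -0.32 and -0.26. ΔDMR1-U2 library 1B was the lowest of all 8 libraries for each of the 6, and wild-type library 3 the lowest wild-type library for each.

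The 6 subunits enter the ring in equal numbers, yet their RNA levels per length differed. Per kilobase of annotated exon, wild-type levels ran from 6.23 ± 0.888 CPM for Mcm2 to 15.4 ± 1.69 CPM for Mcm6 (SD, n = 4). Mcm4 at 11.6, Mcm3 at 10.1, Mcm5 at 9.44 and Mcm7 at 8.74 CPM per kilobase lay between them, and the last 3 did not differ beyond their spread. Exons that are annotated but little used lower such a value, and Mcm2 has the longest annotated exon sequence of the 6, 6956 bases.

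CDC45, the 4 GINS subunits and MCM10 turn the loaded ring into an active helicase. All 6 log2 fold changes were below 0, with a median of -0.35, and none was called. Gins2 had 5.67, 3.04, 5.31 and 5.03 CPM in libraries 1A, 1B, 2 and 3 of ΔDMR1-U2 and 8.11, 6.66, 5.95 and 5.78 CPM in wild-type. The groups did not overlap, and library 1B stood well below its own group. Gins2 had a log2 fold change of -0.47 ± 0.19 (SE; adjusted p = 0.192, edgeR). Gins1 and Mcm10 had about the same size of difference, -0.41 each, with overlapping groups, and Gins3 had -0.29. Cdc45 had -0.19 and Gins4 -0.02. The GINS subunits, which form a complex with 1 copy of each, were at 9.78 ± 0.803 CPM per kilobase in wild-type for Gins4, against 2.55 for Gins1, 1.62 for Gins2 and 1.33 for Gins3. Mcm10 was the least abundant of the 40 per length, at 0.983 ± 0.134 CPM per kilobase. These orders depend on the annotated exon length, which was 1349 bases for Gins4, 1516 for Gins1, 4097 for Gins2, 2709 for Gins3 and 7692 for Mcm10. Exons that are annotated but little used would lower the values of the longer genes.

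PCNA is the ring that holds polymerases on DNA, and the 5 RFC proteins load it. Pcna was the most abundant of the 40 genes per length, at 17.2 ± 1.88 CPM per kilobase in wild-type, followed by Mcm6 within its spread and by Rfc1 at 13.3 ± 0.687. In CPM, Pcna was at 39.9, 22.6, 33.8 and 26.8 in libraries 1A, 1B, 2 and 3 of ΔDMR1-U2 and at 44.8, 45.3, 39.1 and 36.1 in wild-type. Library 1A lay among the wild-type values and the other 3 below all of them. This gave Pcna a log2 fold change of -0.42 ± 0.16 (SE; adjusted p = 0.161, edgeR). The RFC genes differed less, with all 5 overlapping between groups and log2 fold changes from -0.20 for Rfc3 over -0.19 for Rfc2 and -0.18 for Rfc4 to -0.06 for Rfc1. The interval of 1 standard error around Rfc1 and Rfc5 includes 0, at -0.06 ± 0.07 and -0.08 ± 0.10. A pair of pseudogenes of Pcna is annotated, and reads shared with them cannot be told apart.

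Primase and polymerase alpha (Prim1, Prim2, Pola1, Pola2) start each new strand, and polymerases delta (Pold1, Pold2) and epsilon (Pole) extend it. All 7 log2 fold changes were below 0, from -0.34 for Pole to -0.14 for Prim1. At an unadjusted p under 0.05, 5 were lower (10.9% of all genes). Pold2, the accessory subunit of polymerase delta, had 13.8, 15.2, 17.5 and 16.1 CPM in libraries 1A, 1B, 2 and 3 of ΔDMR1-U2 and 21.0, 19.3, 18.8 and 19.8 CPM in wild-type. It did not overlap between groups, and its lowest library was 1A rather than 1B. Pold2 had a log2 fold change of -0.33 ± 0.09 (SE), with an adjusted p of 0.0821 in edgeR and 0.0303 in DESeq2. Pole, the catalytic subunit of polymerase epsilon, had 31.6, 24.7, 30.01 and 27.2 CPM against 41.3, 35.6, 34.8 and 32.5 CPM. It also showed no overlap, at -0.34 ± 0.10 (adjusted p = 0.1002 in edgeR and 0.0349 in DESeq2). Pold1, the catalytic subunit of polymerase delta, was at 17.8 to 19.8 CPM in ΔDMR1-U2 and 19.4 to 28.0 CPM in wild-type, where library 1A was the highest, for a log2 fold change of -0.30. Pola2, at 17.7 to 21.9 CPM against 22.3 to 28.5 CPM, did not overlap and had -0.26, and Prim2 overlapped and had -0.28. Pola1 lies on the X chromosome and was at 46.6, 33.7, 42.9 and 36.8 CPM against 44.6, 49.9, 44.1 and 40.1 CPM, for -0.16. Library 1A, with almost no Xist, was the highest of its group for Pola1, as it was for 28 of the 40 genes.

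FEN1 trims and LIG1 seals the fragments of the lagging strand. Lig1 had 28.5, 19.5, 24.9 and 21.9 CPM in libraries 1A, 1B, 2 and 3 of ΔDMR1-U2 and 29.9, 31.3, 31.0 and 27.6 CPM in wild-type. Library 1A lay within the wild-type range, and the other 3 were below it. Lig1 had a log2 fold change of -0.34 ± 0.11 (SE; adjusted p = 0.125, edgeR). Fen1 had -0.40 ± 0.14, at 11.7 ± 2.38 CPM against 15.5 ± 1.73 CPM.

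The deoxynucleotide genes had a median log2 fold change of -0.41, which was -0.27 without ΔDMR1-U2 library 1B. All 4 were lower at an unadjusted p under 0.05 (10.9% of all genes) without being called. RRM1 and RRM2 form ribonucleotide reductase, which makes deoxynucleotides from ribonucleotides. Rrm2, the subunit known to be limited to S phase, had 18.3, 8.86, 13.1 and 10.4 CPM in libraries 1A, 1B, 2 and 3 of ΔDMR1-U2 and 20.4, 21.1, 22.6 and 17.3 CPM in wild-type. Library 1A alone reached the wild-type range, and libraries 1B and 3 were the lowest. Rrm2 had a log2 fold change of -0.68 ± 0.19 (SE), with an adjusted p of 0.0925 in edgeR and 0.0138 in DESeq2. Without ΔDMR1-U2 library 1A, edgeR called Rrm2 at -0.92 (adjusted p = 0.0350). Rrm1 had 59.3 ± 12.6 CPM against 76.3 ± 8.32 CPM and a log2 fold change of -0.36. Thymidylate synthase (Tyms) and thymidine kinase (Tk1), which make thymidine monophosphate, had -0.45 and -0.37. A pseudogene of Tyms is annotated, and reads shared with it cannot be told apart. Tk1 did not overlap between groups (10.4 to 15.75 CPM against 15.84 to 18.4 CPM).

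The last group holds the regulators of S phase entry and the widest range of differences. E2f2, an activating member of the E2F family, fell 1.53-fold in ΔDMR1-U2. Its gene spans chr4:136172394-136196057 on the plus strand (GRCm38, GENCODE vM21), with no annotated gene overlapping it. E2f2 had 21.4, 14.7, 19.6 and 20.9 CPM in libraries 1A, 1B, 2 and 3 of ΔDMR1-U2 and 31.0, 32.1, 26.8 and 27.6 CPM in wild-type. The highest ΔDMR1-U2 library was below the lowest wild-type library. Group means were 19.2 ± 3.05 and 29.4 ± 2.58 CPM (SD, n = 4 each), and the log2 fold change of E2f2 was -0.61 ± 0.12 (SE), with a Benjamini-Hochberg adjusted p of 0.0426 from edgeR. In the authors' deposited table, the E2f2 ratio of wild-type over ΔDMR1-U2 is 1.53 and its adjusted p is 0.00382. E2f2 is also the only gene of the 40 under 0.05 in the authors' deposited table, where 0.609% of genes are lower in ΔDMR1-U2 at that level.

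The E2f2 call rested on a narrow margin. Its adjusted p in edgeR was 0.0818 without ΔDMR1-U2 library 3, and 0.130, 0.117, 0.0886 and 0.0695 without wild-type library 1A, 1B, 2 and 3. It was 0.0480, 0.0358 and 0.0372 without ΔDMR1-U2 library 1A, 1B or 2, and 0.0932 without 1A and 1B together. The log2 fold change of E2f2 stayed between -0.67 and -0.51 over all of these.

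Ccne1, which encodes cyclin E1, had the largest fold change of the 40 and was not called. It had 14.3, 7.74, 13.4 and 11.1 CPM in libraries 1A, 1B, 2 and 3 of ΔDMR1-U2 and 25.8, 22.2, 18.2 and 16.4 CPM in wild-type. The groups did not overlap, and the spread within each was wide, with wild-type library 1A high and ΔDMR1-U2 library 1B low. Ccne1 had a log2 fold change of -0.82 ± 0.19 (SE), with an adjusted p of 0.0608 in edgeR and 0.00163 in DESeq2. The authors' deposited table lists an adjusted p of 0.0569 for Ccne1. Ccne2, the gene of the other cyclin E, was at 10.8 ± 2.32 CPM against 11.4 ± 1.12 CPM, a log2 fold change of -0.07 ± 0.15. Cdk2, the kinase that cyclin E activates, was at 45.2, 37.2, 41.8 and 40.3 CPM against 43.0, 43.4, 43.9 and 40.05 CPM, with overlapping groups and -0.05 ± 0.07. E2f1, a further activating E2F, had -0.18 ± 0.10. E2f2 and Ccne1 thus had larger differences than E2f1, Ccne2 and Cdk2, though the differences between these genes were not tested.

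**Figure D4:**
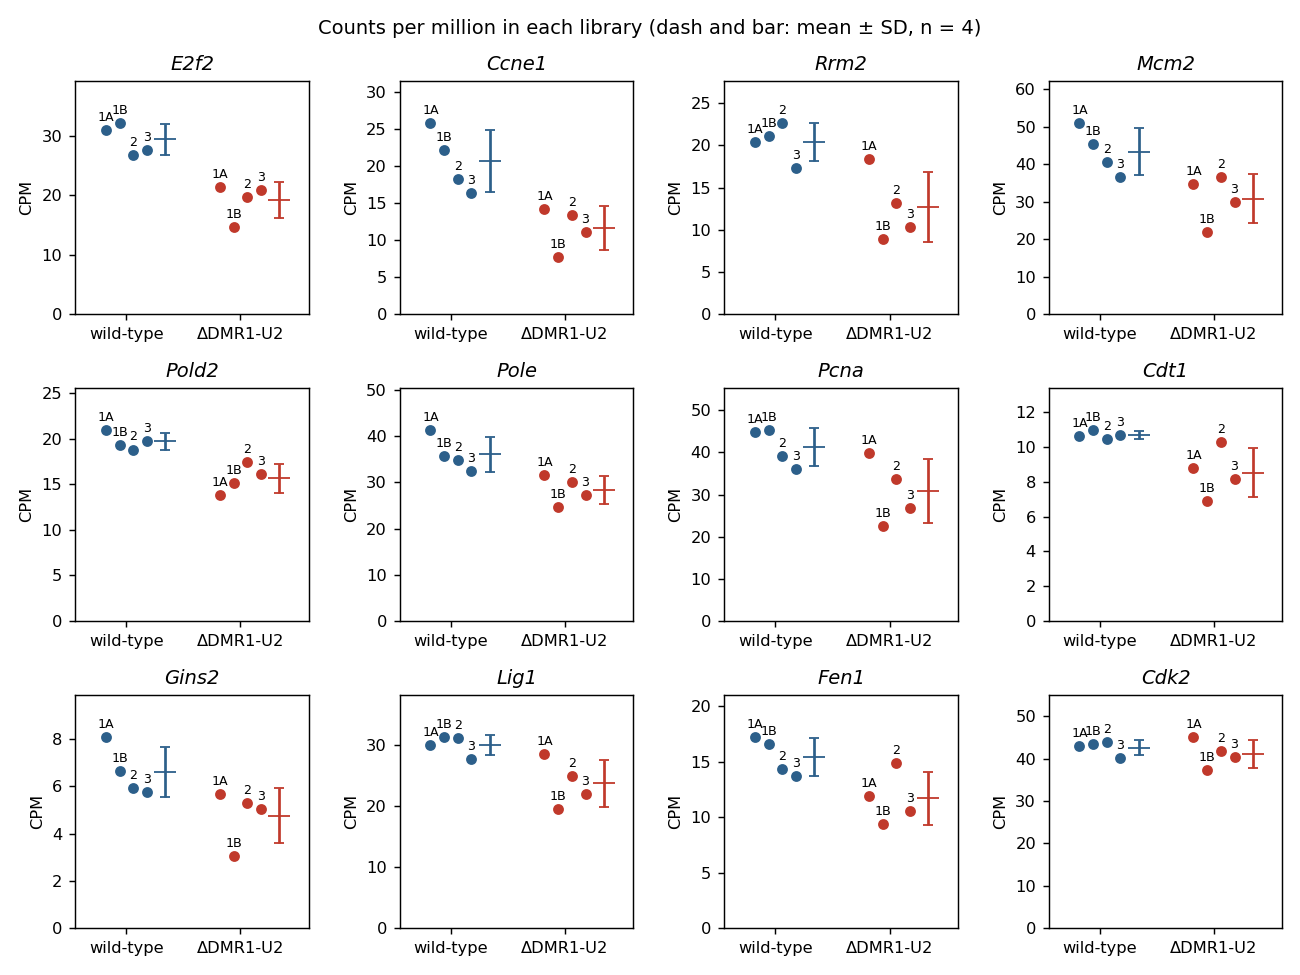
Expression in CPM (y axis, from 0) of 12 replication genes in each wild-type (blue) and ΔDMR1-U2 (red) library, labelled 1A, 1B, 2 and 3, with the mean and SD of each group (n = 4). The 12 were picked, mostly from genes lower at an unadjusted p under 0.05, and do not represent the whole list. E2f2 and Ccne1 do not overlap between groups, Rrm2 overlaps through library 1A, and the groups overlap for Cdk2.

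With DESeq2 in place of edgeR, 6 of the 40 genes were called lower, E2f2, Ccne1, Rrm2, Mcm2, Pold2 and Pole, where 3.3% of all genes were. Without a filter on low counts, edgeR called E2f2 and Ccne1, where 0.679% of all genes were called lower. Without ΔDMR1-U2 library 2 it called 5, E2f2, Ccne1, Pold2, Fen1 and Tk1, where 2.19% of all genes were, and without library 1A it called E2f2 and Rrm2, where 0.469% were. Without ΔDMR1-U2 library 3 it called none (0.0196% of all genes), nor without wild-type library 1A, 1B, 2 or 3 (0.0195%, 0.104%, 0.0325% and 0.0911% of all genes). With RLE scaling, edgeR called E2f2 alone (0.604% of all genes), and with the replicate number as a block it called none of the 40 (0.0656% of all genes).

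A list of 66 other replication genes had a median log2 fold change of -0.17, against -0.31 for the 40, and the difference between the lists was not tested. Of the 66, 55 had a fold change below 0 (50.2% of all genes), 1 was called lower (0.617% of all genes) and 0 higher by edgeR. At an unadjusted p under 0.05, 23 were lower (10.9% of all genes) and 4 higher (10.4%). E2f8, an E2F that represses rather than activates its targets, was the gene called. It had 10.6, 8.75, 8.95 and 10.4 CPM in libraries 1A, 1B, 2 and 3 of ΔDMR1-U2 and 14.6, 13.4, 14.996 and 12.4 CPM in wild-type, with no overlap. The log2 fold change of E2f8 was -0.52 ± 0.10 (SE; adjusted p = 0.0446, edgeR), and the call was lost without library 1B (adjusted p = 0.0716) or 3 (0.0846) of ΔDMR1-U2, or without wild-type library 1A (0.143), 1B (0.105), 2 (0.106) or 3 (0.0685). The authors' deposited table lists E2f8 at an adjusted p of 0.1202.

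Uhrf1, which helps to copy DNA methylation at the fork, had 31.4, 20.1, 27.5 and 24.7 CPM against 42.0, 39.9, 40.01 and 32.1 CPM. All 4 ΔDMR1-U2 libraries were below all 4 wild-type libraries, at -0.57 ± 0.13 (adjusted p = 0.0619 in edgeR and 0.00306 in DESeq2). The authors' deposited table lists Uhrf1 at an adjusted p of 0.0205. Rpa1, of the complex that coats single-stranded DNA, had -0.29 ± 0.07 with an adjusted p of 0.0747 in edgeR and 0.0177 in DESeq2. Dck, which encodes deoxycytidine kinase, had -0.43 ± 0.12 (adjusted p = 0.0903 in edgeR and 0.0294 in DESeq2), and edgeR called it without library 2 of ΔDMR1-U2 (adjusted p = 0.0452). Rpa1 and Dck had no overlap between groups. Orc3, a subunit of the origin recognition complex, had a fold change above 0, at 0.17 ± 0.06 (adjusted p = 0.175, edgeR).

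Genes of mitosis followed a different order of libraries. All 20 genes of that list had a log2 fold change below 0 (50.2% of all genes), with a median of -0.25. EdgeR called 0 of them lower (0.617% of all genes), and 6 were lower at an unadjusted p under 0.05 (10.9% of all genes). Their median in log2 CPM minus the wild-type mean was -0.24, -0.29, -0.01 and -0.44 in libraries 1A, 1B, 2 and 3 of ΔDMR1-U2 and 0.01, 0.07, 0.18 and -0.26 in wild-type. Within ΔDMR1-U2, library 3 was the lowest for 19 of the 20 mitosis genes and library 1B for 0. For the 40 replication genes, library 1B was the lowest of that group for 29 and library 3 for 9. Within wild-type, library 3 was the lowest for all 20 mitosis genes and for 28 of the 40 replication genes. Cartilage and bone markers, at 38.3 CPM in ΔDMR1-U2 library 3 and 57.1 CPM in wild-type library 1A, were at 378.6 to 1367 CPM elsewhere. Their part in these values was not tested.

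**Figure D5:**
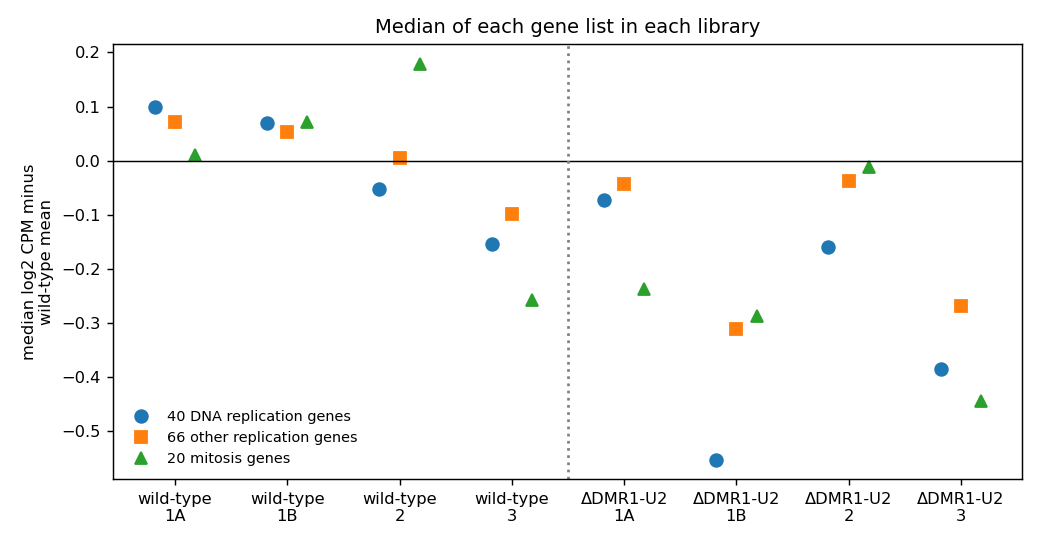
Median of 3 gene lists in each library, as log2 CPM minus the wild-type mean (y axis): the 40 replication genes (circles), 66 other replication genes (squares) and 20 mitosis genes (triangles). Replication genes are lowest in ΔDMR1-U2 library 1B (-0.55) and mitosis genes in ΔDMR1-U2 library 3 (-0.44).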

How the data were processed

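Replicates are the 4 mice per group that the series' design text names. Per the submitters' processing notes, the build was mm10, with TopHat2 2.0.9, Bowtie2 2.1.0, HTSeq 0.5.4p3, DESeq2 1.4.5 and FastQC 0.10.1 named as tools without settings. Neither the annotation nor the strand used in counting is named by the labels. Of the 40 genes, 17 overlap a gene on the opposite strand, from which reads cannot be told apart where counting ignored strand. Per the file headers, the deposited table holds raw counts per gene and library, the authors' mean normalised signal, their ratio (fold) of wild-type over ΔDMR1-U2, its log2 value, and their p-value and adjusted p-value.

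Counts were tested in R 4.3.3 with edgeR 4.0.16 (TMM scaling, filterByExpr at a minimum count of 10, quasi-likelihood test, Benjamini-Hochberg adjustment over 15241 genes), with a threshold of 0.05. CPM uses scaled library sizes. The biological coefficient of variation was 12.3%. Lengths came from GENCODE vM21. The procedure was also run on simulated data. The differences set there were all larger than the median of the 40 genes, so it does not show how well differences of that size are found. Alternatives were DESeq2 1.42.0, RLE scaling, no filter, the replicate number as a block, and libraries left out. Values per library are given for the smallest p in each role group, for called genes and for the most abundant gene per length; of the other replication lists, for called genes or the smallest p. Others named with values were chosen after their values were seen. The 40 genes and all lists were chosen with earlier results of these data known. Same-numbered libraries did not deviate together (correlations of -0.216 to -0.0802).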

Additional observations from a re-analysis of the deposited data

Results flagged for a closer look

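In 4 cases, 1 library stood far from the other 3 of its group, by the gap to the nearest library relative to the range of the group (above Dixon's 95% critical value for 4 samples). Chance alone gives this in about 5% of groups, and 94 groups were examined. Cdc45 was at 7.69 CPM in wild-type library 3, against 10.8 to 11.3 CPM in the other wild-type libraries. Rfc4 was at 9.45 CPM in ΔDMR1-U2 library 1A, against 6.07 to 6.50 CPM in the rest of its group. Rfc5 was at 9.76 CPM in ΔDMR1-U2 library 1B, against 12.4 to 12.9 CPM in the rest. Tfdp2 was at 242 CPM in the same library, against 112 to 118 CPM in the rest of that group. Tfdp2 and Rbl2 were examined only after their values had been seen, so the 5% does not apply to them.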

How the results depend on the processing

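Over 13 alternatives, the median log2 fold change of the 40 genes kept its sign, from -0.35 to -0.24, and no gene of the 40 was called higher. The count called lower was 6 with DESeq2 (3.3% of all genes) and 2 with no filter on low counts (0.679%). It was 0 with the replicate block (0.0656%) and 0 without both ΔDMR1-U2 libraries 1A and 1B (0.0319%). With 1 library left out it was 0 to 5, where 0.0195% to 2.19% of all genes were called lower. With the replicate block, the adjusted p of E2f2 was 0.112. No label says that the numbers pair libraries, and same-numbered libraries did not deviate together. Of the other replication genes, 8, 2, 0, 0 and 0 to 2 were called lower in the same order of settings, beside the same shares of all genes. Over all genes, DESeq2 called 459 higher and 503 lower against 78 and 94, the replicate block 3 and 10, the fit without both libraries 11 and 5, and fits with 1 library left out 4 to 294 and 3 to 337. With 1 library left out, the sign turned, with no call in any fit, for Gins4 (-0.096 to 0.065, above 0 without library 3 of ΔDMR1-U2 and, at 0.023, without wild-type 1B), Rfc5 (-0.11 to 0.0081) and Ccne2 (-0.21 to 0.030), the last 2 without library 1B of ΔDMR1-U2. The causes were not tested. Gins1, with 37 to 106 counts per library, had the largest standard error of the 40, 0.22. A log2 difference as small as the median of the 40 was not detectable for it. That limit was not particular to Gins1. Without library 1B of ΔDMR1-U2, Pold2 at -0.32 ± 0.10 (SE) was not called either (adjusted p = 0.143, edgeR). A gene that was not called is therefore not shown to be unchanged.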

Other observations

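A pair of genes in the other replication lists, chosen after their values were seen, was high where the 40 genes were low. Tfdp2, which encodes a partner protein of E2F factors, had 112, 242, 114 and 118 CPM in libraries 1A, 1B, 2 and 3 of ΔDMR1-U2 and 94.2, 88.9, 99.0 and 95.8 CPM in wild-type. Rbl2, which encodes the pocket protein p130 of resting cells, had 43.0, 69.4, 38.5 and 47.4 CPM against 35.9, 34.7, 36.2 and 39.6 CPM. Both were highest in library 1B, the lowest library for most of the 40 genes. Their log2 fold changes were 0.63 ± 0.22 for Tfdp2 (adjusted p = 0.146) and 0.44 ± 0.15 for Rbl2 (adjusted p = 0.150, edgeR for both). Without library 1B of ΔDMR1-U2 they were 0.28 for Tfdp2 (adjusted p = 0.0641) and 0.23 for Rbl2 (adjusted p = 0.224). Over 13 alternatives the adjusted p ran from 0.0641 to 0.286 for Tfdp2 and from 0.0670 to 0.373 for Rbl2, so neither was called in any. Both come from a list of 16 genes of E2F, pocket proteins and S phase entry. In that list, 2 genes had all ΔDMR1-U2 libraries above all wild-type libraries (6.4% of all genes), and 4 had the opposite order (6.38%). The 2 were Tfdp2 and Rb1, and Rb1 was not highest in library 1B. Rbl2 overlapped between groups.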
